A study of Mus musculus with 2 samples.

Results

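The genes described here are 35 smooth muscle contractile and cytoskeletal genes, chosen by symbol from a table of 37309 mouse genes, 22379 of them protein-coding. All 35 were found in the table. They were compared between 1 library of supportive intestinal subepithelial myofibroblasts (ISEMFs) and 1 library of non-supportive ISEMFs by RNA sequencing. Both populations were wild type C57BL/6 cells of the small intestine grown in culture. Supportive ISEMFs came from 5-day-old neonates and were used for their ability to sustain crypt-derived epithelium, whereas non-supportive ISEMFs came from adult mice 2 months of age and were described as weak in that assay. Age and the ability to support epithelium therefore cannot be told apart. The sources used here do not state at which passage the cells were sequenced, so a difference in passage could not be told apart from them either. Names in the deposited data carry suffixes that differ between the populations and may mark a passage, but their meaning is not stated. There was 1 library of each population, so no difference below has a replicate check, no p-value is given, and the 95% intervals cover counting error only. The number of mice behind each culture is not given in the sources used here.

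Myofibroblasts carry part of the contractile apparatus of smooth muscle. In smooth muscle, calcium and calmodulin activate myosin light chain kinase, which phosphorylates the regulatory light chain and lets myosin pull on filaments of smooth muscle actin. Tropomyosins, caldesmon and calponins lie along these filaments, and α-actinin, filamin and vinculin tie them to one another and to the membrane. Many of these genes are targets of serum response factor (SRF), which binds a short DNA element called the CArG box. Myocardin (Myocd) and its relatives Mkl1 and Mkl2 are cofactors of SRF, and the last 2 enter the nucleus when the pool of free actin monomers shrinks. Transcript levels report neither the localisation nor the activity of such proteins.

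Reads counted on genes totalled 50674472 for supportive and 49615497 for non-supportive ISEMFs. Levels are given as RPKM, the reads of a gene divided by its exon length and by the library size. Log2 ratios are those of supportive over non-supportive RPKM with a pseudocount of 0.1, so a negative value is a lower level in supportive ISEMFs. Folds and their intervals were taken from reads scaled to library size, without a pseudocount. Genes were counted as different at 2-fold, among those with an RPKM of 1 or more in either library, called the RPKM minimum below. The 50-base reads were kept by the authors only where they matched once, so genes with close copies elsewhere in the genome can be undercounted.

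The label was checked against markers of the cell types that such a culture could hold. Acta2, Actg2, Myl9, Tagln and Cald1 were among the most abundant transcripts of both libraries, as given below. They belong to the genes described here and to none of the marker lists, so their levels are not a separate check. Other genes described here were far less abundant. Des had an RPKM of 0.575 in supportive and 3.40 in non-supportive ISEMFs, Smtn had 4.88 and 3.16, and Myocd had 0.635 and 0.0409. Of the 19 striated muscle markers, 3 reached the RPKM minimum. These were Tnnt2, with an RPKM of 130 in supportive and 2.16 in non-supportive ISEMFs, Actc1 with 11.5 and 16.5, and Acta1 with 8.21 and 21.9. Ckm, Myh1, Myh2, Myh6, Tnnc1 and Myod1 had 0 reads in both libraries. A count of 0 allows up to 3 reads at this depth. Of the 10 immune markers, 7 reached the RPKM minimum and all 7 were lower in the supportive library, where 6 of the 10 had 0 reads. Their summed RPKM was 6.86 in supportive and 123 in non-supportive ISEMFs. Of the 8 fibroblast markers, 5 were at least 2-fold higher and 1 was at least 2-fold lower, with summed RPKM of 2446 and 1391. Over all protein-coding genes at the RPKM minimum, 9.25% were at least 2-fold higher and 8.98% at least 2-fold lower. Mitochondrial genes took 14.6% of the counted reads of supportive ISEMFs and 7.85% of those of non-supportive ISEMFs. The part that these differences play in the contractile genes was not tested, and fewer contractile cells and less contractile RNA per cell cannot be told apart in such cultures.

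Promoters were searched for the CArG box because it is the element through which SRF reaches contractile genes. The box is CC, then 6 bases that are each A or T, then GG, and it reads as the same pattern on both strands. The windows were those of RefSeq on GRCm38.p6, from 250 bases before to 50 bases after each annotated start. Of the 35 genes, 31 had a window; Actg2, Myh11, Myocd and Tagln had none. A complete box was found in 5 of the 31 genes (16.1%), which were Cnn2, Myl6, Myl9, Srf and Vcl. Across all genes of the same table it was found in 1.81% of 27025, and in 1.63% of 32851 windows. The sequences below show these 5 genes and Acta2, the most abundant of the 35, whose window holds a pair of near matches with 1 C or G among the 6 middle bases. They are written 5′ to 3′ on the strand of the gene, with complete boxes and near matches in capitals.
Acta2 (chr19:34255383-34255472, minus strand): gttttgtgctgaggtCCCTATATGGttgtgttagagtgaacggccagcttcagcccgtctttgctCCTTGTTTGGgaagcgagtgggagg
Srf (chr17:46556200-46556259, minus strand): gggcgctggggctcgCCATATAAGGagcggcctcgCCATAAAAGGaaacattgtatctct
Myl9 (chr2:156775288-156775389, plus strand): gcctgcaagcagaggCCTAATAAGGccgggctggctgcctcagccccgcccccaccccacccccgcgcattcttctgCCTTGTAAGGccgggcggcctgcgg
Cnn2 (chr10:79988529-79988568, plus strand): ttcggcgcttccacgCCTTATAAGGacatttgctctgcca
Vcl (chr14:20929156-20929195, plus strand): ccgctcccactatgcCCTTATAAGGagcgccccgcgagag
Myl6 (chr10:128493035-128493074, minus strand): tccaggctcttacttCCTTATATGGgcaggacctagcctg

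The 2 near matches of Acta2 began 84 and 34 bases before the start. Srf, which encodes the factor itself, held 2 complete boxes, 82 and 62 bases before its start. The complete box of Myl9 lay 161 bases before the start, with a near match at 99 bases. Cnn2 and Vcl carried the same box letters, at 56 and 227 bases. The box of Myl6 lay at 50 bases. The genes with a complete box did not share 1 response, since Srf, Vcl and Myl9 were lower and Cnn2 was about level in supportive ISEMFs, as given below. A match is a description of the sequence, and a window without one shows only that these letters are not within it.

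Most of the contractile genes were lower in supportive ISEMFs. Of the 35 genes, 31 reached the RPKM minimum, and Myl6, Pdlim3, Myocd and Pln did not. Among the 31, 26 were below (83.9%) and 5 above a log2 ratio of 0. Of all protein-coding genes at the minimum, 54.9% were below 0. By 2-fold, 9 were lower (29.0%) and 0 were higher. Among the 9110 protein-coding genes at the same minimum, 8.98% were at least 2-fold lower and 9.25% at least 2-fold higher, 18.2% in all. The median log2 ratio of the 31 was -0.64, against -0.07 over all protein-coding genes. The 9 lower genes were Myh11, Mylk, Tpm1, Cnn1, Tagln2, Des, Csrp1, Mkl1 and Kcnmb1, and they included motor, filament, adhesion, regulator and channel genes. Mylk did not reach 2-fold and Itga8 passed it on the higher side under each of 4 other scalings of the libraries, which gave 1 higher and 7 or 8 lower. With exon lengths of the annotation, Myocd passed the minimum and was higher by 2-fold, which gave 1 higher and 9 lower of 32. The next gene on the lower side was Srf, at 1.81-fold lower. The closest on the higher side was Itga8, at 1.97-fold higher.

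Reads of the 35 genes made 2.21% of all reads on genes in supportive and 3.52% in non-supportive ISEMFs. Of reads on protein-coding genes outside the mitochondrial genome they made 2.75% and 4.04%. The thin filament genes took 1.19% and 2.01% of all reads on genes, the actins 0.320% and 0.459%, and the myosin genes with the kinase 0.205% and 0.398%. The make-up of these reads differed as well. Cald1 held 29.2% of the reads of the 35 genes in supportive ISEMFs and 19.1% in non-supportive ISEMFs, while Tpm1 held 10.5% and 23.5%. Acta2 held a similar share of them, 10.33% and 9.999%. In rank of RPKM among protein-coding genes, 6 of the 35 genes stood within the first 100 in supportive ISEMFs and 11 in non-supportive ISEMFs.

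**Figure D1:**
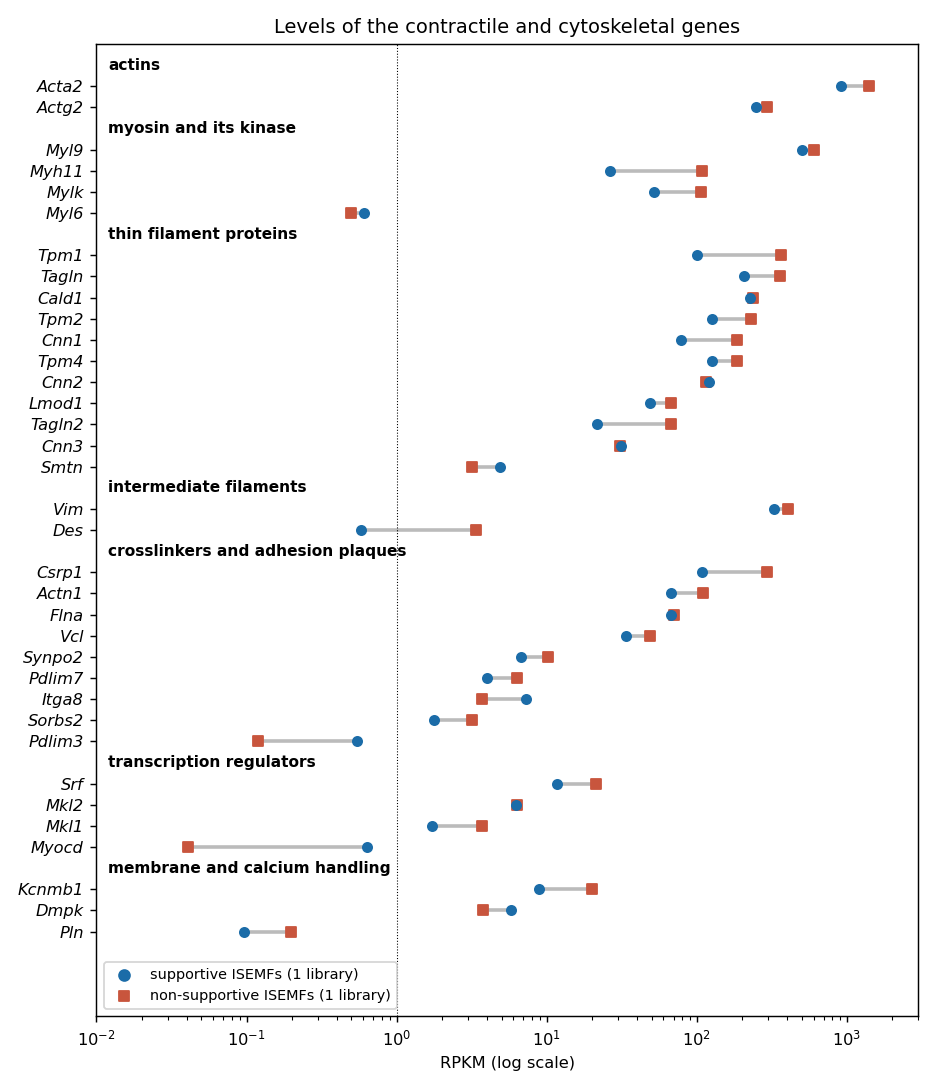
RPKM of each of the 35 genes on a log axis, by role, with a circle for the supportive and a square for the non-supportive library, 1 library each. The dotted line marks an RPKM of 1, and most squares lie to the right of their circles, with Myocd, Pdlim3, Itga8, Dmpk, Smtn, Myl6 and, by little, Cnn2 and Cnn3 in the opposite order.

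Both smooth muscle actins were abundant in both libraries and moderately lower in supportive ISEMFs. Acta2, which encodes α-smooth muscle actin (α-SMA; mm9 chromosome 19, 34315580 to 34329826, minus strand), had 115540 reads in supportive and 174410 in non-supportive ISEMFs. Its RPKM was 908 at rank 7 of the protein-coding genes in the former and 1410 at rank 2 in the latter, 1.55-fold lower (95% interval 1.54 to 1.56). Actg2, the γ-smooth muscle actin typical of gut and other visceral muscle (chromosome 6, 83462899 to 83486259), had an RPKM of 247 and 292, 1.18-fold lower (1.17 to 1.20). Neither actin reached 2-fold. Acta2 was 3.68 times as high as Actg2 per length in supportive ISEMFs and 4.83 times as high in non-supportive ISEMFs. With annotated exon lengths it was 2.17 and 2.86 times as high. The cytoplasmic actin gene Actb, which serves every cell, had an RPKM of 205 and 482. Acta2 relative to Actb was thus higher in supportive ISEMFs, at 4.44 against 2.92, although Acta2 itself was lower. With annotated exon lengths that ratio was 2.21 against 1.45.

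Among the myosin genes, the heavy chain differed far more than the regulatory light chain. Myh11, the smooth muscle myosin heavy chain and a late marker of differentiated smooth muscle (chromosome 16, 14194620 to 14291501, minus strand), had 12471 reads in supportive and 49826 in non-supportive ISEMFs. Its RPKM was 26.3 and 108, ranks 815 and 145, a 4.11-fold lower level (4.03 to 4.19). Myh9, a non-muscle heavy chain of the same class, had an RPKM of 34.9 and 42.9. Myh11 therefore stood below Myh9 in supportive ISEMFs, with a ratio of 0.753, and above it in non-supportive ISEMFs, with a ratio of 2.52. That ratio was 3.35-fold lower in supportive ISEMFs (3.27 to 3.43). Against Myh10, another non-muscle heavy chain, the ratio was 2.24 and 6.76. Myl9, the regulatory light chain that the kinase phosphorylates, had an RPKM of 506 and 608 and a 1.20-fold lower level (1.19 to 1.22). By deposited RPKM it was second of the 35 genes in both libraries. With annotated exon lengths, Cald1 at 595 stood above Myl9 in supportive ISEMFs. In non-supportive ISEMFs, Tpm1 at 912, Vim at 625 and Cald1 at 624 then did so. Mylk, the light chain kinase gene, had an RPKM of 52.0 and 106, 2.05-fold lower (2.03 to 2.07). Mylk lay close to the 2-fold threshold and did not pass it when the libraries were scaled in other ways, as given in the closing section.

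Myl6, the essential light chain, could not be measured with confidence. It had 29 reads in supportive and 23 in non-supportive ISEMFs, an RPKM of 0.610 and 0.498, and an interval of the ratio that held 1. Of the 50-base windows in its exons, 12.5% occurred once in the mm9 genome. The other members with less than 95% unique windows were Cnn3 with 75.5% and Tpm4 with 85.0%, and 32 of the 35 genes were above 95%. Windows were compared by exact match within exons, whereas the authors' alignment allowed mismatches. These shares can therefore overstate how much sequence could be counted. Among other contractile genes, Actg1 had 36.2% unique windows and an RPKM of 2.06 and 1.55. The level of such a gene cannot be set beside that of other genes, whereas both libraries were counted in the same way.

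**Figure D2:**
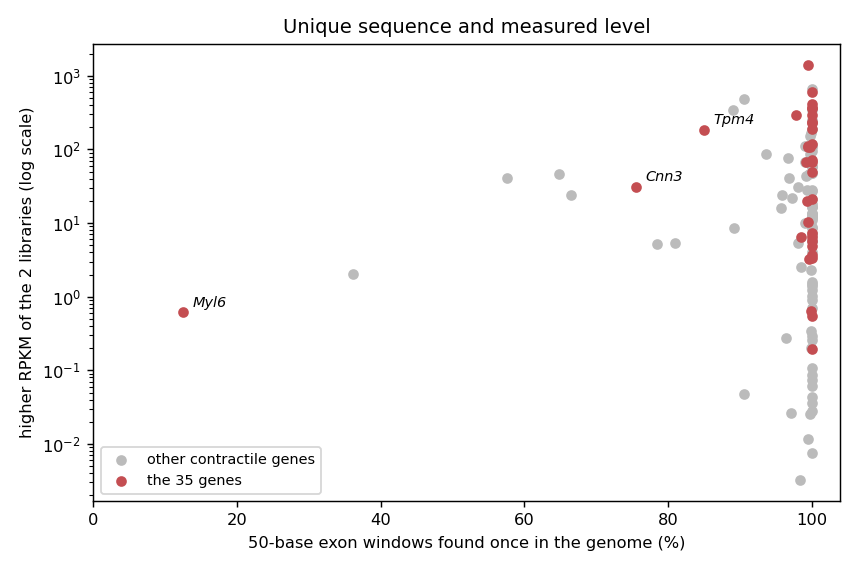
Share of 50-base exon windows that occur once in the mm9 genome against the higher RPKM of the 2 libraries on a log axis, for the 35 genes and for the other contractile genes. Myl6 stands alone among the 35 genes at 12.5%, with Cnn3 and Tpm4 at 75.5% and 85.0%.

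The tropomyosins, which lie along the actin filament and gate access of myosin, were all lower, but to different degrees. Tpm1 (chromosome 9, 66870397 to 66897213, minus strand) had 117121 reads in supportive and 410694 in non-supportive ISEMFs, and an RPKM of 101 and 363. It was 3.61-fold lower (3.58 to 3.63), and its rank went from 140 in supportive to 32 in non-supportive ISEMFs. Tpm2 had an RPKM of 126 and 228, 1.80-fold lower. Tpm4 had an RPKM of 126 and 185, 1.47-fold lower. Tpm2 relative to Tpm1 was 1.26 in supportive and 0.629 in non-supportive ISEMFs. Tpm1 relative to Tpm4 was 0.801 and 1.96, a 2.45-fold lower ratio in supportive ISEMFs (2.40 to 2.50). The order of the genes within a library depends on the exon length used, since the deposited length of Tpm1 is 2.51 times that in the annotation. With annotated lengths, Tpm2 relative to Tpm1 was 0.986 and 0.493 and Tpm1 relative to Tpm4 was 1.98 and 4.86, so neither pair changed order between the libraries, while the differences between the libraries do not depend on length. Tpm1 and Tpm2 make muscle and non-muscle forms by alternative exons, and reads per gene do not separate them.

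The calponins bind actin and tropomyosin and slow the myosin ATPase. Cnn1, the form typical of smooth muscle, had 13303 reads and an RPKM of 78.6 in supportive ISEMFs, and 30687 reads and an RPKM of 187 in non-supportive ISEMFs. It was 2.37-fold lower (2.33 to 2.42). Cnn2, which is made more widely, had an RPKM of 120 and 115, 1.04-fold higher (1.02 to 1.06). Cnn3, the acidic calponin, had an RPKM of 31.1 and 30.8, with an interval of its ratio that held 1. Cnn1 was thus the only one of the 3 to differ by 2-fold, and it was below Cnn2 in supportive ISEMFs, at a ratio of 0.656, and above it in non-supportive ISEMFs, at 1.62. The ratio of Cnn3 to Cnn2 was 0.259 and 0.267, and the interval of that difference held 1.

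The transgelins went the other way round. Tagln, also called SM22α and an early marker of smooth muscle, had an RPKM of 206 and 360, 1.74-fold lower (1.72 to 1.77). Tagln2, its more widely made relative, had an RPKM of 21.6 and 67.3, 3.12-fold lower (3.01 to 3.24). Tagln relative to Tagln2 was 9.58 in supportive and 5.35 in non-supportive ISEMFs, so the smooth muscle form made up more of the pair in supportive ISEMFs, in contrast to the calponins and the myosin heavy chains. Cald1, the gene of caldesmon, which restrains actomyosin, was about level, with 326676 and 333073 reads and an RPKM of 226 and 237, 1.05-fold lower. Its deposited exon length of 20200 bases is 2.63 times that in the annotation used here, so its RPKM is low relative to genes whose lengths are the same. Lmod1, a leiomodin that nucleates actin filaments in smooth muscle, had an RPKM of 49.0 and 67.4, 1.37-fold lower. Relative to Tmod3, which caps filament ends, Lmod1 was 1.78 and 2.21. Smtn, the gene of smoothelin, was higher in supportive ISEMFs, with an RPKM of 4.88 and 3.16, 1.55-fold (1.44 to 1.66), and 16.3% of its exon bases overlap other annotated genes.

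**Figure D3:**
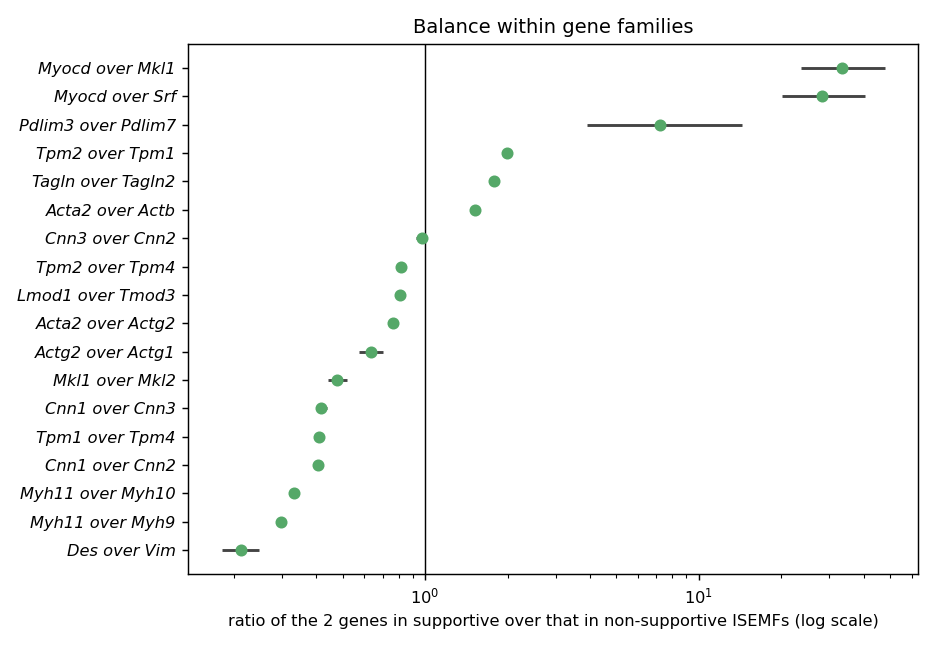
Ratio between 2 related genes in supportive ISEMFs divided by the same ratio in non-supportive ISEMFs, on a log axis, with 95% counting intervals, some of which are narrower than the point. A point at 1 marks an equal balance, Cnn3 over Cnn2 is the pair whose interval holds 1, and the pairs with Myocd lie at 33.2 and 28.1.

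The intermediate filament genes Vim and Des were at very different levels. Vim, the gene of vimentin, which is made throughout the mesenchyme, had an RPKM of 325 and 407, 1.25-fold lower (1.24 to 1.26). Des, the gene of desmin, which links the contractile lattice of muscle (chromosome 1, 75356904 to 75365154, plus strand), had 179 and 1030 reads and an RPKM of 0.575 and 3.40. Des had the lowest log2 ratio of the 35 genes, -2.38, and was 5.92-fold lower. Against Vim, Des was 4.73-fold lower in supportive ISEMFs (4.03 to 5.54), and 2.23-fold lower from RPKM with a pseudocount of 1.

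Of the crosslinker and adhesion plaque genes, 8 of 9 reached the minimum, 7 were below 0 and 1 passed 2-fold. That gene was Csrp1, a LIM protein of the actin cytoskeleton (chromosome 1, 137616638 to 137648809, plus strand), with an RPKM of 109 and 293, 2.69-fold lower (2.64 to 2.75). Actn1, a non-muscle and smooth muscle α-actinin that crosslinks actin, had an RPKM of 67.7 and 111, 1.64-fold lower. Vcl, the gene of vinculin, which couples actin to adhesions, had an RPKM of 33.8 and 48.6, 1.44-fold lower, and 39.9% of its exon bases overlap the gene Ap3m1. Flna, the gene of filamin A, which joins actin into networks, had an RPKM of 67.8 and 71.0, 1.05-fold lower. Synpo2, an actin-bundling protein of muscle, had an RPKM of 6.71 and 10.2. Sorbs2, an adaptor of stress fibres and adhesions, had an RPKM of 1.77 and 3.20. Pdlim7, a PDZ and LIM protein of actin filaments, had an RPKM of 4.01 and 6.37. These 3 genes of low to moderate level were 1.52-, 1.81- and 1.59-fold lower.

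The remaining 2 genes of this group were higher in supportive ISEMFs. Itga8, the integrin α8 chain of smooth muscle and other contractile mesenchyme (chromosome 2, 12028259 to 12223547, minus strand), had 4874 and 2400 reads and an RPKM of 7.30 and 3.70. It was 1.97-fold higher, and the interval from 1.88 to 2.07 held the 2-fold threshold. Pdlim3, a PDZ and LIM protein that binds α-actinin, had 61 and 13 reads and an RPKM of 0.541 and 0.119, below the minimum. The ratio of Pdlim3 to Pdlim7 was 7.23-fold higher in supportive ISEMFs, with a wide interval of 3.92 to 14.4 from few reads, and 2.02-fold higher from RPKM with a pseudocount of 1.

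The transcription regulators did not differ together. Srf (chromosome 17, 46683788 to 46693111, minus strand) had 3435 reads in supportive and 6053 in non-supportive ISEMFs, an RPKM of 11.7 and 21.3, 1.81-fold lower (1.74 to 1.89). Mkl1, an actin-regulated SRF cofactor (chromosome 15, 80842711 to 81021187, minus strand), had an RPKM of 1.73 and 3.70, 2.14-fold lower (1.996 to 2.299). Mkl2, its closest relative, was about level, with an RPKM of 6.24 and 6.39 and an interval that held 1. Myocd, the cofactor most restricted to smooth and cardiac muscle (chromosome 11, 64990063 to 65083491, minus strand), had 591 reads in supportive ISEMFs and 37 in non-supportive ISEMFs. Its RPKM was 0.635 and 0.0409, so it was below the minimum in both libraries. With the annotated exon length, 1.96 times shorter, its RPKM was 1.25 in supportive ISEMFs. Its reads were 15.5-fold higher in supportive ISEMFs (11.1 to 22.3). The log2 ratio of Myocd was 2.38 with the pseudocount of 0.1, 3.92 with 0.001 and 0.65 with 1.

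The balance among the cofactors was accordingly different. Myocd made 0.367 of Mkl1 per length in supportive ISEMFs and 0.0110 in non-supportive ISEMFs, a 33.2-fold higher ratio (23.6 to 48.0) that rests on the 37 reads of Myocd in the latter. From RPKM with a pseudocount of 0.1 or 1 it was 10.8-fold or 2.71-fold higher. Mkl1 relative to Mkl2 was 0.277 and 0.580. Even in supportive ISEMFs, Mkl2 was the most abundant of the 3 cofactor genes.

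Actomyosin genes and regulators were set side by side. The 17 actins, myosins, kinase and thin filament genes had 16 at the minimum, with a median log2 ratio of -0.60. By 2-fold, 5 of the 16 were lower and 0 higher, against 8.98% and 9.25% of protein-coding genes. The 4 regulators, taken with no RPKM minimum, had a median of -0.44 over log2 ratios from -1.06 for Mkl1 to 2.38 for Myocd. With no minimum, the median of the 17 actomyosin genes was -0.56. Without Myocd, the only regulator below the minimum, the median of the other 3 was -0.85. Which group was lower by median thus depended on whether genes below the minimum, and so Myocd, were included. The summed RPKM was 2829 and 4370 for the actomyosin genes and 20.4 and 31.4 for the regulators, a ratio of 0.647 and 0.648 of supportive over non-supportive. The 2 groups thus had nearly the same ratio of sums in deposited RPKM, but not in shares of reads. By share of all reads on genes, the ratio was 0.748 for the regulators. It was 0.696 for the actins, 0.516 for the myosin genes with the kinase and 0.593 for the thin filament genes. Myocd, which adds little to the sum, stood apart from all 16 actomyosin genes, whose highest log2 ratio was 0.61 for Smtn.

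Membrane and calcium handling genes were few and mixed. Kcnmb1, the β1 subunit of the calcium-activated potassium channel in smooth muscle, had an RPKM of 8.90 and 20.2, 2.27-fold lower (2.17 to 2.38). Dmpk, a kinase of muscle membranes, had an RPKM of 5.79 and 3.74, 1.55-fold higher (1.48 to 1.62). Pln, the gene of phospholamban, which restrains the calcium pump of the sarcoplasmic reticulum, had 17 and 34 reads and was below the minimum at an RPKM of 0.0959 and 0.197. The interval of its 2.06-fold lower level was 1.12 to 3.93.

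**Figure D4:**
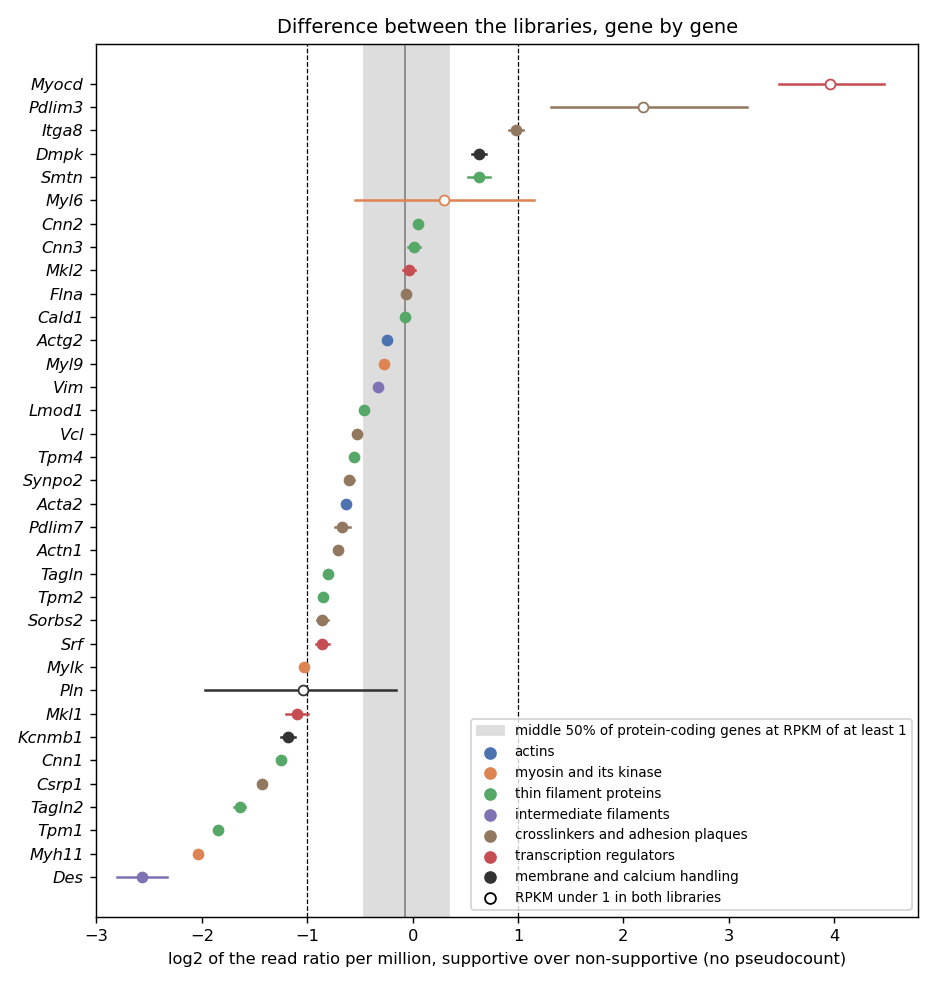
Log2 of the ratio of reads scaled to library size, supportive over non-supportive, for each of the 35 genes with its 95% counting interval, without a pseudocount, coloured by role. The grey band is the middle 50% of protein-coding genes at the RPKM minimum (with the pseudocount), its line their median, and the dashed lines are 2-fold; 5 of the 31 genes at the minimum lie above 0.

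Other genes of the contractile machinery, from a list of 85 of which 84 were found, had 64 genes at the minimum. Of these, 9 were at least 2-fold higher and 10 at least 2-fold lower (14.1% and 15.6%, against 9.25% and 8.98% of protein-coding genes), and the median log2 ratio was -0.32. Among the other actins and myosins, the ends were Acta1, skeletal muscle actin, with a log2 ratio of -1.41, and Myl12b, a non-muscle regulatory light chain, with 0.65. Among 5 other thin filament genes at the minimum all were below 0, from Pfn1 of profilin at -0.96 to Tmod3 at -0.15. The other crosslinker and adhesion genes ran from Pgm5, a muscle adhesion protein, with an RPKM of 0.0842 and 1.58 (18.8-fold lower), to Synpo, the gene of synaptopodin, which bundles actin, with 12.2 and 1.15 (10.6-fold higher). Of the 29 at the minimum, 5 were higher and 7 lower by 2-fold.

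Among 10 other membrane and calcium genes at the minimum, 3 were higher and 1 was lower. Ednra, an endothelin receptor, had an RPKM of 0.370 and 1.49. Agtr1a, an angiotensin receptor, had 451 reads in supportive and 0 in non-supportive ISEMFs, at least 146-fold higher when the latter was set at 3 reads.

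Among other regulators, 43 of 47 listed were found and 36 reached the minimum. Of these, 12 were higher and 2 lower by 2-fold, with a median log2 ratio of 0.45. These are 33.3% and 5.56%, against 9.25% and 8.98% of protein-coding genes. Ternary complex factors, which compete with myocardin family cofactors for SRF, and early SRF target genes had 9 at the minimum, all above 0, and 6 of them higher by 2-fold. Elk3, a ternary complex factor, was closest to level with an RPKM of 16.2 and 14.4, and Fos, an immediate early gene, was farthest with 7.57 and 0.425 (17.8-fold higher). No ternary complex factor passed 2-fold, so the 6 were all early target genes. The actin-SRF cofactors and inhibitors, 8 at the minimum, had 0 genes past 2-fold, from Diap1 at -0.57 to Mical2, which oxidises nuclear actin, at 0.60. Of the 19 other factors tied to smooth muscle at the minimum, 6 were higher and 2 lower. Notch3, a Notch receptor of vascular smooth muscle and pericytes, had an RPKM of 2.38 and 0.158 and was highest, and Klf5, with 0.358 and 1.75, was lowest.

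**Figure D5:**
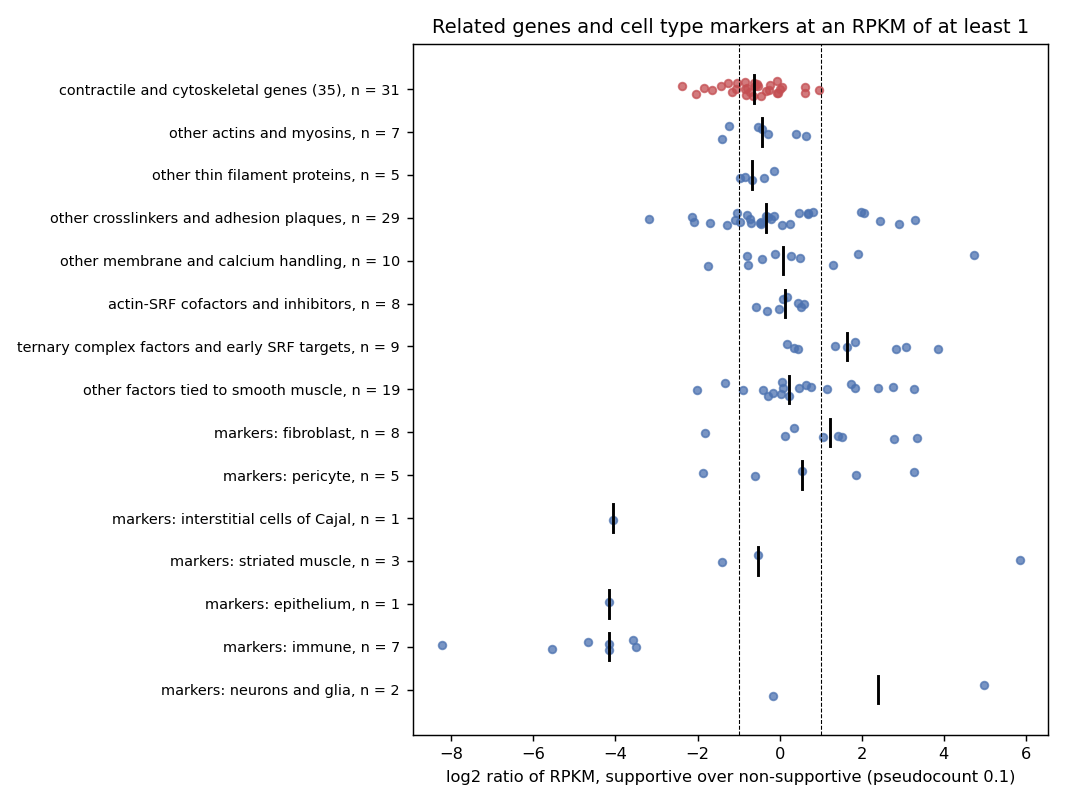
Log2 ratios of RPKM (pseudocount 0.1), supportive over non-supportive, of the genes at the RPKM minimum, by list, each point 1 gene and each bar the median of its list. The 35 genes (top, red) lie mostly left of 0, early SRF targets lie right of 0, and the 7 immune markers lie left of the dashed line that marks 2-fold lower.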

How the data were processed

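RNA sequencing of 1 supportive and 1 non-supportive ISEMF library was analysed. The authors made libraries from mRNA with the TruSeq kit, aligned single-end 50-base reads to mm9 with TopHat (TopHat2 2.0.4 in the submitters' processing notes), kept unique hits and counted genes with HTSeq 0.5.4p3. Strand was not stated, so overlapping genes on opposite strands cannot be told apart. The Ensembl release is not given in the sources used here. The authors deposited raw read counts per gene and RPKM, which are those counts divided by exon length and library size. The library sizes implied by them are 71463423 and 69449374 reads. The deposited log2 ratio, p-values and DESeq results of the authors were not used. Per the labels, the libraries are named by population, and each group has 1 library.

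The members and gene lists were chosen with earlier results of these data known. All members are described by role. Of the other lists, the named genes are the family partners and, in each role, the genes with the lowest and highest log2 ratio at the RPKM minimum; other names were chosen after their values were seen. Of the markers, the text names genes without reads in a library and the most abundant of each list, and a few others chosen after their values were seen.

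Exact Clopper-Pearson 95% intervals of read shares gave the intervals of folds. For ratios between 2 genes, exact conditional intervals were used below 20000 reads, and a large-sample interval on the log scale above, in place of the planned exact one. The fold intervals were tested on simulated counts. Unique 50-base windows and overlaps were computed on NCBIM37 (mm9) with GENCODE vM1, whose exon lengths equal the deposited ones for 12 of the 35 genes. Of 242 symbols listed, 5 were not found. Alternatives were other pseudocounts, RPKM minimums, fold thresholds and library scalings (TMM of edgeR 4.0.16, size factors of DESeq2 1.42.0). With 1 library per group neither tool was used for a test. Python 3.11.15 with pandas 2.3.3 and scipy 1.17.1 and R 4.3.3 were used. The culture and qPCR experiments were not analysed here, and not every list or gene is reported here.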

Additional observations from a re-analysis of the deposited data

How the results depend on the processing

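With 1 library of each population, no library could be left out and no spread between cultures estimated, and the ages of the mice are tied to the groups. No paired analysis was possible because each group has 1 library. Scaling by TMM factors (0.984 and 1.02), by median-of-ratios size factors, to a median of 0 over expressed protein-coding genes or without mitochondrial reads moved the median over all protein-coding genes from -0.07 to -0.01, -0.03, 0.00 and 0.01. In all 4, Mylk no longer passed 2-fold and Itga8 passed it on the higher side, and Mkl1 lost its place under the last 2 and with a pseudocount of 1. The split of the 31 genes at the minimum was then 1 higher and 8 lower for TMM and size factors, and 1 and 7 for the others. Of protein-coding genes at the minimum, 910 were higher and 753 lower of 9115 with TMM, and 889 and 774 of 9116 with size factors. These were 926 and 740 of 9114 when centred, and 930 and 733 of 9115 without mitochondrial reads. Without an RPKM minimum the split of the 35 genes was 2 and 9, with Pdlim3 and Myocd higher. Of all 22379 protein-coding genes, 1259 were then higher and 1380 lower. At a minimum RPKM of 5 the split was 0 and 7 of 27 genes, since Des and Mkl1 are below that level. At 4-fold, 2 of the 31 genes at the minimum, 8 of the 64 other contractile genes and 7 of the 36 other regulators differed. Of the 9110 protein-coding genes, 306 were higher and 297 lower at 4-fold, in all a share close to that of the 31. At 1.5-fold, 20 of the 31 genes and 36 of the 64 other contractile genes differed. Of the 9110 protein-coding genes, 1521 were higher and 1732 lower at 1.5-fold. An RPKM of at least 5 left 6 of 19 other regulators past 2-fold, 5 higher and 1 lower. Of the 4725 protein-coding genes at that level, 400 were higher and 437 lower by 2-fold.

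The median log2 ratio of the 31 genes at the minimum was -0.56 with a pseudocount of 1, -0.58 with TMM, -0.57 centred and -0.56 without mitochondrial reads. That of the actomyosin genes was -0.54, -0.56, -0.53 and -0.52 under the 4 scalings in the order above, -0.64 at an RPKM of at least 5, -0.56 without a minimum and -0.72 without Myl6, Tpm4, Cnn2, Cnn3 and Tagln2. That of the regulators, taken with no RPKM minimum, was -0.39 with TMM, -0.37 centred, -0.37 without mitochondrial reads and -0.85 without Myocd. The CArG box count went from 5 to 8 genes where 1 of the 6 middle bases may be C or G (25.8% of the 31, against 11.3% of all genes). A complete box within 150 bases before the start was found in 3 genes (9.68% of the 31, against 1.04% of all genes). Over 6 settings for each gene, signs changed for Cald1, Flna and Mkl2, which lay near 0, and no gene past 2-fold changed sign. Added after seeing the data, RPKM with a pseudocount in the ratios between related genes reversed none of those past 2-fold among the 18 ratios, and moved 8 of 36 values beyond their counting intervals. Those with Myocd went from 33.2-fold to 10.8- and 2.71-fold against Mkl1 and from 28.1-fold to 9.42- and 2.75-fold against Srf, at pseudocounts of 0.1 and 1. Mkl1 against Mkl2 went from 2.09-fold to 1.69-fold lower at 1, under 2-fold. Annotated exon lengths, also added after seeing the data, gave 10 of the 32 genes then at the minimum past 2-fold.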

Other observations

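Tnnt2, the cardiac form of troponin T, had 10251 reads and an RPKM of 130 in supportive ISEMFs and 166 reads and an RPKM of 2.16 in non-supportive ISEMFs, 60.0-fold higher (95% counting interval 51.5 to 70.4). It was not accompanied by its partners among the striated muscle markers, since Tnnc1 had 0 reads in both libraries and Tnni1 had 6 and 2. Troponin genes outside that list were not examined. Actc1, the cardiac actin, had an RPKM of 11.5 and 16.5. Its place among the genes of the thin filament was the reason to look at it after its value was seen.

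In the non-supportive library, Lyz2 was the most abundant immune marker with an RPKM of 72.7 against 6.31 in supportive ISEMFs, and Tyrobp had 1174 reads against 0. Ano1 of interstitial cells of Cajal had an RPKM of 0.0225 and 1.94, and Kit had 0 and 6 reads. Of the 10 epithelial markers, 1 reached the RPKM minimum, Krt20 at 0.0799 and 3.13, and Cdx1 and Cdx2 had 0 reads in both. The 6 endothelial and 5 mesothelial markers all stayed below the minimum. Among pericyte markers, Mcam was the most abundant at 29.7 and 44.7. Of the 5 at the minimum, 2 were higher and 1 was lower by 2-fold, against 9.25% and 8.98% of protein-coding genes. Neuron and glia markers had 2 of 8 at the RPKM minimum, S100b and Uchl1. S100b of glia had an RPKM of 6.69 and 0.116, while Sox10 had 0 reads in both libraries. Uchl1 was about level, 1.12-fold lower in supportive ISEMFs with an interval that held 1. Fn1, the most abundant fibroblast marker, had an RPKM of 1087 and 850.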
